A study of Mus musculus with 15 samples.

Results

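The genes described here are the autophagy machinery and its cargo receptors, followed in mouse kidneys that do or do not express a TFE3 fusion. The set names 39 genes: the initiation kinase complex, the class III phosphatidylinositol 3-kinase (PI3-kinase) complex, the membrane-supply proteins of the growing phagophore, the 2 conjugation systems, the ATG8 family with its ATG4 proteases, and the soluble cargo receptors. The rule picks them by gene name and uses no measured value, though the set was drawn up with earlier results of these data known. Of the 39 names, 38 were read under a single gene symbol, out of 22180 genes on the array, and Optn was not analysed here.

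In autophagy a cup-shaped membrane, the phagophore, grows around cytoplasmic cargo, closes into an autophagosome and fuses with a lysosome, where the cargo is digested. Kidney tubule cells depend on it for turnover of mitochondria and protein aggregates. TFE3 and its relatives TFEB and MITF (the MiT family) are transcription factors that bind E-box sequences in promoters of lysosomal and autophagy genes, and PRCC-TFE3 is a fusion of TFE3 found in translocation renal cell carcinoma.

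All 15 mice had a PRCC-TFE3 allele knocked into Rosa26 with a loxP-stop-loxP cassette in front of it, so the Cre-negative controls (Cre-) held the silent allele. Cre-positive mice (Cre+) also carried KSP-Cre, a transgene driven by the promoter of Cdh16 (Ksp-cadherin), which confines Cre to tubule epithelium of the kidney and the urogenital tract. There was no group with KSP-Cre and without the knock-in, so effects of the transgene and of the fusion cannot be told apart. RNA came from whole kidneys, with 1 mouse per array. The younger mice, aged 4 months, were 4 Cre- and 4 Cre+, and the older, aged 7 months, were 3 Cre- and 4 Cre+. The comparisons ask whether autophagy genes differed between Cre+ and Cre- kidneys at each age, whether that difference changed between the ages, and whether the genes moved with age within a genotype.

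Values are log2 expression levels after RMA, so a difference of 1 is a doubling or halving, and levels of different genes are not compared because each has its own probes. A gene was said to rise or fall where limma's moderated test over all 22180 genes gave a Benjamini-Hochberg adjusted p under 0.05. Each error after a change is its standard error (SE) from that fit. Array values are given in the order of the replicate numbers in the labels. The number of arrays limits the precision.

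Array medians lay between 4.40 and 4.55. Whether the probes for Tfe3 read the fusion as well as the mouse gene was not examined. The change of Tfe3 was 0.03 and 0.22 at the younger and older age (limma adjusted p = 0.92 and 0.14), so it checks no label. Prcc changed by 0.09 and -0.25 (limma adjusted p = 0.78 and 0.2). Cdh16, whose promoter drives KSP-Cre, changed by -0.17 at 4 months (limma adjusted p = 0.55) and fell by 0.43 at 7 months (adjusted p = 0.026). Gpnmb, a gene that MiT factors are known to induce, was 78.7-fold higher in Cre+ kidneys at 4 months and 214-fold higher at 7 months by limma (adjusted p = 1.5e-13 and 3.2e-14), with no overlap between the groups. The tissue label was checked with 12 proximal tubule markers, whose mean level was 11.22 to 11.38 in Cre- kidneys at 4 months. That mean was 10.83 to 11.10 in Cre+ kidneys at 4 months, 11.25 to 11.31 in Cre- kidneys at 7 months and 9.62 to 10.20 in Cre+ kidneys at 7 months. Of these markers 3 fell at 4 months (median of all 12, -0.28) and 12 fell at 7 months (median -1.28). Of 15 macrophage and monocyte markers, 5 rose at 4 months (median 0.57) and 14 at 7 months (median 1.34). Their mean level was 5.37 to 5.95 in Cre- and 5.98 to 6.35 in Cre+ kidneys at 4 months, and 5.47 to 5.83 and 6.89 to 7.17 at 7 months. Of 9 myofibroblast and matrix markers 4 rose at 4 months (median 0.63) and 6 at 7 months (median 1.57), and of 9 lymphocyte markers 1 and 6 rose (medians 0.25 and 1.24). Of 6 distal convoluted tubule markers 2 fell at 4 months and 6 at 7 months (medians -0.52 and -0.80), and of 7 intercalated cell markers 1 rose at 4 months and 6 fell at 7 months (medians -0.07 and -0.72). Of 8 thick ascending limb markers 1 rose and 3 fell at 4 months and 1 rose and 4 fell at 7 months (medians -0.17 and -0.61), and of 4 podocyte markers 0 passed and 3 fell (medians -0.30 and -0.61). Of 8 endothelial markers 0 passed at 4 months and 2 fell at 7 months (medians 0.06 and -0.34), and of 7 principal cell markers 1 rose at each age (medians 0.32 and -0.12). The part of these marker levels in the autophagy values was not tested. In a bulk sample, fewer cells of a type and less RNA per cell cannot be told apart.

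Promoter windows were searched for the E-box CACGTG, because it is the core of the sequence that MiT factors bind. RefSeq promoter windows (GRCm38.p6, 250 bases before to 50 after a start) were found for 33 of the 39 genes, with 39 windows in all. The letters CACGTG, which read the same on both strands, were in 4 of the 39 windows (10.3%), against 7.15% of all 32851 windows. TCACGTG, searched on both strands and overlapping the first motif, was in 3 of the 39 (7.69%, against 3.77%), and the 10-base CLEAR consensus that contains it was in 0 (against 0.326%). The genes with CACGTG were Atg3, Atg5, Atg7 and Atg14, and in Atg14 the match spans the start. The longer TCACGTG was in the windows of Atg3, Atg7 and Atg14, and not of Atg5. A match is a description of the letters and not of binding. The 100 bases around the matches are shown for Atg3, Atg7 and Atg5, where the matches lie wholly before a start. Atg3 fell and Atg7 rose at 7 months, and Atg5 passed no test. The relation of the letters to these changes was not tested. They are chr16:45158699-45158798, chr6:114670917-114671016 and chr10:44268239-44268338, all on the plus strand of GRCm38.p6, and the capitals mark CACGTG.
Atg3: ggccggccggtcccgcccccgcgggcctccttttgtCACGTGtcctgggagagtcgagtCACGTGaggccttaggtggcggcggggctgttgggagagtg
Atg7: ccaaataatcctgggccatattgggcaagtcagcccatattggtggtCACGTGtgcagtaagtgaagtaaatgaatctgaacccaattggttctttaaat
Atg5: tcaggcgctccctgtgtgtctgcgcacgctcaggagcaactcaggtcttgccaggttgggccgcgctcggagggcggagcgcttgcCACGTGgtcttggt
The Atg3 window holds the letters at 2 places, 94 and 71 bases before the start, the Atg7 window at 132 and the Atg5 window at 14.

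At 4 months few of the genes differed between Cre+ and Cre- kidneys. Of the 38 genes, 1 rose (Sqstm1, 2.63% of them, against 2.73% of all genes) and 1 fell (Wipi1, 2.63%, against 0.803% of all genes). In either direction this is 5.26% of the 38, against 3.53% of all genes. With each array centred on its median, 0 rose and 2 fell, while the counts over all genes went from 606 rises and 178 falls to 497 and 511. Among genes kept by a filter on dim genes, 2.78% of the autophagy genes went each way, against 5.47% of all genes kept that rose and 2.16% that fell. The median change of the 38 genes was -0.03, against 0.05 over all genes. The other 36 changes lay between -0.37 and 0.36, with adjusted p from 0.087 to 0.98.

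At 7 months 11 of the 38 genes passed the test. Sqstm1, Uvrag, Atg7 and Gabarapl2 rose (10.5% of the 38, against 11.7% of all genes), by 1.28-fold to 1.67-fold. Atg13, Atg9a, Wipi2, Atg3, Atg10, Gabarapl1 and Atg4d fell (18.4%, against 10.8% of all genes), by 1.28-fold to 1.55-fold. Centring each array on its median gave 3 rises and 12 falls, and moved all genes the same way, from 2597 rises and 2394 falls to 2337 and 3609. The median change of the 38 genes was -0.07, against -0.04 over all genes. The filter on dim genes kept 36 of the 38 and 12296 of the 22180 genes, and there 13.9% of the autophagy genes rose, against 20.7% of all genes kept, and 25% fell, against 19%. Without that filter the share called in either direction was 28.9%, against 22.5% of all genes, a background that holds many dim genes. With the filter the autophagy share was below that of all genes kept for rises and above it for falls. The counts by role given below stand beside these same shares of all genes, and no role was tested as a group.

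**Figure D1:**
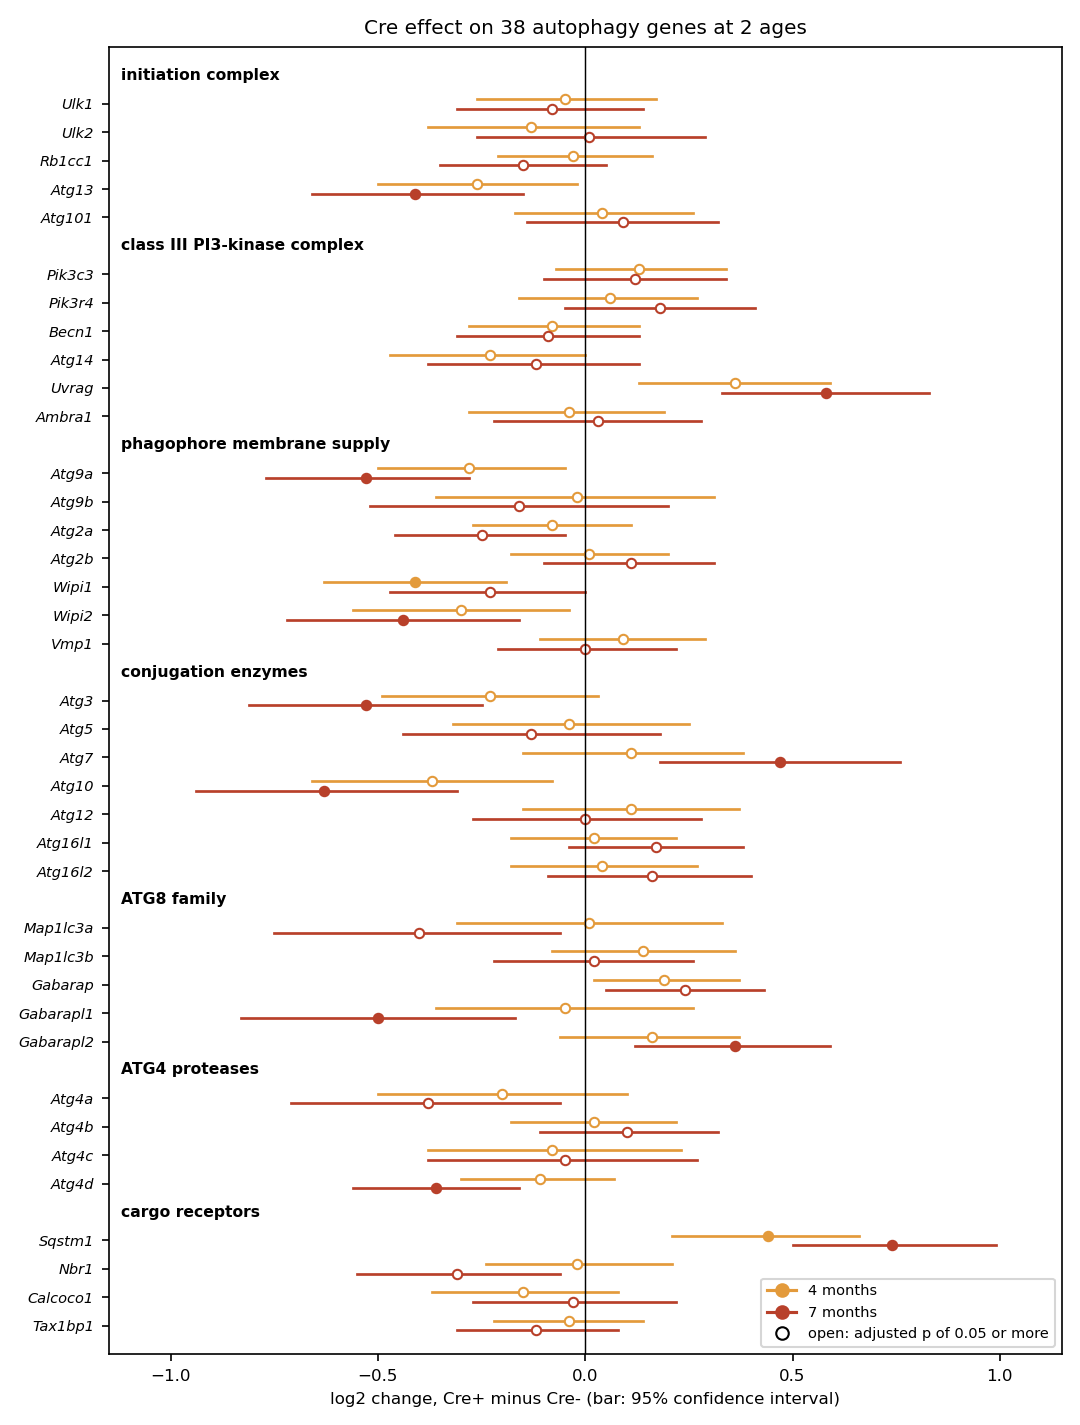
Change in log2 expression (Cre+ minus Cre-) of the 38 autophagy genes by role at 4 and 7 months, with 95% confidence intervals from the limma fit. Open points did not pass the test. The filled points are 2 genes at 4 months and 11 at 7 months, and none exceeds 0.74 in size.

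Cargo receptors link ubiquitinated cargo to ATG8 proteins on the phagophore, and Sqstm1, which encodes p62, had the largest rise of the set at both ages. Of the 4 measured receptors it was the one that passed the test. Its level at 4 months was 9.93, 9.86, 10.18 and 9.83 in Cre- kidneys and 10.40, 10.33, 10.44 and 10.38 in Cre+ kidneys. At 7 months the levels were 9.66, 10.08 and 9.99 in Cre- kidneys and 10.61, 10.56, 10.79 and 10.65 in Cre+ kidneys. Every Cre+ array lay above every Cre- array of its age, and every 7-month Cre+ array lay above every 4-month Cre+ array. Sqstm1 rose by 0.44 (SE 0.11, 1.35-fold, limma adjusted p = 0.031) at 4 months and by 0.74 (SE 0.12, 1.67-fold, adjusted p = 0.00015) at 7 months. The 4-month call was lost with median centring (0.35, adjusted p = 0.084), with the 2 groups fitted alone (0.44, adjusted p = 0.05 after rounding) and without any 1 of 6 arrays (Cre- replicate 1, 2 or 4, or Cre+ replicate 2, 3 or 4; changes of 0.40 to 0.46, adjusted p = 0.059 to 0.092). The 7-month call held under each of these settings at 7 months.

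The other receptors did not pass. Nbr1, a receptor related in domain structure to p62, had levels of 9.07, 9.02 and 9.32 in Cre- and 8.92, 8.73, 8.81 and 8.86 in Cre+ kidneys at 7 months. The groups did not overlap, with the Cre+ arrays lower, yet its change of -0.31 (SE 0.12) had an adjusted p of 0.069 in limma. It passed with the filter on dim genes (adjusted p = 0.04), median centring (adjusted p = 0.016), trend and robust variance (adjusted p = 0.046) and the replicate block (adjusted p = 0.032). Tax1bp1, a receptor for ubiquitinated aggregates, stood at means of 10.17 (SD 0.05, n = 4) and 10.13 (SD 0.09, n = 4) at 4 months and 10.14 (SD 0.08, n = 3) and 10.02 (SD 0.09, n = 4) at 7 months, Cre- first. Calcoco1, a receptor of the reticulum and Golgi, had changes of -0.15 and -0.03 at the 2 ages.

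In the class III PI3-kinase complex, which makes the lipid that marks the phagophore, 1 of 6 genes rose at 7 months and 0 passed at 4 months. It was Uvrag, a subunit of the form of the complex that acts on endosomes and on autophagosome maturation. Uvrag read 8.35, 8.29, 8.22 and 8.43 in Cre- and 8.54, 8.72, 8.68 and 8.78 in Cre+ kidneys at 4 months. At 7 months it read 7.96, 8.27 and 8.49 in Cre- and 8.87, 8.70, 8.83 and 8.89 in Cre+ kidneys. The Cre+ arrays were above the Cre- arrays at both ages. Uvrag rose by 0.58 at 7 months (SE 0.12, 1.5-fold, limma adjusted p = 0.0014). Its 4-month change of 0.36 (SE 0.11) did not pass (adjusted p = 0.087), but did with quantile normalization or array weights (adjusted p = 0.037 with each).

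Atg14, which defines the form of this complex that starts phagophores and in which it takes the place of Uvrag, did not pass: its changes were -0.23 (adjusted p = 0.31) and -0.12 (adjusted p = 0.54). The catalytic subunit Pik3c3 (0.13 and 0.12), its regulatory subunit Pik3r4 (0.06 and 0.18), the scaffold Becn1 (-0.08 and -0.09) and the Becn1 partner Ambra1 (-0.04 and 0.03) did not pass at either age. Their 95% intervals at 7 months were -0.10 to 0.34, -0.05 to 0.41, -0.31 to 0.13 and -0.22 to 0.28.

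The initiation complex holds the kinases Ulk1 and Ulk2, the scaffold Rb1cc1 (FIP200) and the adaptors Atg13 and Atg101. Of these 5 genes, 0 passed at 4 months and Atg13 fell at 7 months. Atg13 had levels of 7.5, 7.37, 7.73 and 7.34 in Cre- and 7.26, 7.03, 7.22 and 7.38 in Cre+ kidneys at 4 months. At 7 months they were 7.44, 7.44 and 7.53 in Cre- and 7.13, 6.86, 7.24 and 7.02 in Cre+ kidneys. The groups overlapped at 4 months and not at 7 months. The changes were -0.26 (SE 0.11, limma adjusted p = 0.25) and -0.41 (SE 0.12, adjusted p = 0.022). Without Cre- replicate 2 or 3 or Cre+ replicate 2 or 4 of the 7-month arrays, the second became -0.42 to -0.34 with adjusted p = 0.05 (rounded) to 0.068.

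The 2 kinases of the complex did not pass. Ulk1 changed by -0.05 and -0.08 and Ulk2 by -0.13 and 0.01, with 95% intervals at 7 months of -0.31 to 0.14 and -0.26 to 0.29. Rb1cc1 at 7 months lay at 8.16 to 8.33 in Cre- and 8.04 to 8.12 in Cre+ kidneys, without overlap, and its change of -0.15 did not pass (adjusted p = 0.28; 0.043 with median centring). Atg101 changed by 0.04 and 0.09.

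Membrane supply to the phagophore rests on the scramblase Atg9a, the lipid-transfer proteins Atg2a and Atg2b, and the lipid-binding Wipi proteins. Of 7 genes in this group, 1 fell at 4 months and 2 fell at 7 months, and none rose. Of all genes 0.803% fell and 2.73% rose at 4 months, and 10.8% fell and 11.7% rose at 7 months. Among genes kept by the filter on dim genes, 19% fell and 20.7% rose at 7 months. Wipi1, which reads the lipid made by the class III PI3-kinase, was at 6.78, 6.69, 6.78 and 6.69 in Cre- and 6.19, 6.14, 6.47 and 6.49 in Cre+ kidneys at 4 months. At 7 months it was at 6.61, 6.58 and 6.44 in Cre- and 6.32, 6.17, 6.47 and 6.27 in Cre+ kidneys. The groups were apart at 4 months, with the Cre+ arrays lower, and overlapped at 7 months. Wipi1 fell by 0.41 at 4 months (SE 0.10, 1.33-fold, limma adjusted p = 0.033), and its change at 7 months was -0.23 (SE 0.11, adjusted p = 0.16; 0.033 with quantile normalization and 0.034 with median centring). The difference between the ages was 0.18 (SE 0.15, adjusted p = 0.60). The 4-month call was lost with the 2 groups fitted alone (adjusted p = 0.077) and without any 1 of 6 arrays (each Cre- replicate, or Cre+ replicate 1 or 2; changes of -0.43 to -0.35, adjusted p = 0.055 to 0.12).

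Wipi2, which recruits the conjugation machinery to the same lipid, was lower in Cre+ kidneys at both ages. Its levels were 7.44, 7.30, 7.67 and 7.32 in Cre- and 7.26, 7.08, 7.13 and 7.07 in Cre+ kidneys at 4 months. At 7 months they were 7.18, 7.24 and 7.74 in Cre- and 6.87, 6.85, 7.04 and 7.03 in Cre+ kidneys. No Cre+ array reached the lowest Cre- array of its age, and 1 Cre- array at 7 months, at 7.74, stood above the rest. The changes were -0.30 (SE 0.12, limma adjusted p = 0.23) and -0.44 (SE 0.13, adjusted p = 0.023). With the 2 groups alone the second had an adjusted p of 0.057. Without Cre- replicate 3 or Cre+ replicate 1 or 2 it became -0.42 to -0.27 (adjusted p = 0.054 to 0.14).

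Atg9a had levels of 6.67, 6.72, 6.90 and 6.65 in Cre- and 6.47, 6.54, 6.55 and 6.26 in Cre+ kidneys at 4 months. At 7 months they were 6.62, 6.97 and 6.85 in Cre- and 6.39, 6.37, 6.13 and 6.25 in Cre+ kidneys. Here too the Cre+ arrays were below the Cre- arrays at both ages. The change was -0.28 at 4 months (SE 0.11, limma adjusted p = 0.19) and Atg9a fell by 0.53 at 7 months (SE 0.12, 1.44-fold, adjusted p = 0.0026). Atg2a was at 6.35 to 6.40 in Cre- and 5.99 to 6.22 in Cre+ kidneys at 7 months, and its change of -0.25 had an adjusted p of 0.076. It passed with the filter on dim genes, quantile normalization, median centring and the plain linear model (adjusted p = 0.018 to 0.039). Its paralog Atg2b changed by 0.01 and 0.11. Atg9b and Vmp1, a scramblase of the reticulum, were dim on all arrays. Vmp1 lay at 2.53 to 2.95, near the 2.64 to 2.98 at which the mean of 3 Y-linked genes stood on the 7 arrays with low values of it, so its values may not be above background.

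A pair of ubiquitin-like systems attach ATG8 proteins to the phagophore lipid, with Atg7 as the activating enzyme of both, Atg3 and Atg10 as the conjugating enzymes, and Atg12, Atg5 and Atg16l1 as the ligase. Of these 7 genes with Atg16l2, 1 rose and 2 fell at 7 months, and 0 passed at 4 months. Thus the 7-month calls of the activating enzyme and of the conjugating enzymes that it feeds were in opposite directions, though the Atg7 call did not hold under every setting. Atg7 read 6.56, 6.66, 6.72 and 6.40 in Cre- and 6.56, 6.76, 6.69 and 6.79 in Cre+ kidneys at 4 months. At 7 months it read 6.27, 6.36 and 6.67 in Cre- and 6.65, 6.75, 7.15 and 7.06 in Cre+ kidneys. The groups overlapped at both ages, at 7 months by 1 Cre- array at 6.67 and 1 Cre+ array at 6.65. Atg7 rose by 0.47 at 7 months (SE 0.14, 1.38-fold, limma adjusted p = 0.019), against 0.11 (SE 0.13, adjusted p = 0.72) at 4 months. The call was lost with the 2 groups fitted alone (adjusted p = 0.056) and without Cre- replicate 1 or 2 or Cre+ replicate 3 or 4 (0.39 to 0.43, adjusted p = 0.057 to 0.09).

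Atg10, which transfers Atg12 to Atg5, had the largest fall of the set at 7 months. Its levels were 7.56, 7.52, 7.33 and 7.43 in Cre- and 7.00, 6.71, 7.36 and 7.29 in Cre+ kidneys at 4 months. At 7 months they were 7.68, 7.24 and 7.36 in Cre- and 6.89, 6.60, 6.91 and 6.79 in Cre+ kidneys. At 4 months 1 Cre+ array, at 7.36, lay above the lowest Cre- array, and at 7 months the groups were apart. Atg10 fell by 0.63 at 7 months (SE 0.15, 1.55-fold, limma adjusted p = 0.0049), and its 4-month change was -0.37 (SE 0.14, adjusted p = 0.18; 0.049 with median centring).

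Atg3, which transfers ATG8 proteins to lipid, stood at 8.29, 8.13, 8.27 and 7.78 in Cre- and 7.86, 7.74, 7.99 and 7.96 in Cre+ kidneys at 4 months. At 7 months it stood at 8.23, 8.15 and 8.26 in Cre- and 7.95, 7.64, 7.67 and 7.46 in Cre+ kidneys. The groups overlapped at 4 months through 1 low Cre- array and were apart at 7 months. Atg3 fell by 0.53 at 7 months (SE 0.13, 1.45-fold, limma adjusted p = 0.0075), and its 4-month change was -0.23 (SE 0.12, adjusted p = 0.38). The ligase genes did not pass: at 7 months Atg5 changed by -0.13, Atg12 by 0.00, Atg16l1 by 0.17 and Atg16l2 by 0.16, with adjusted p from 0.27 to 0.99.

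**Figure D2:**
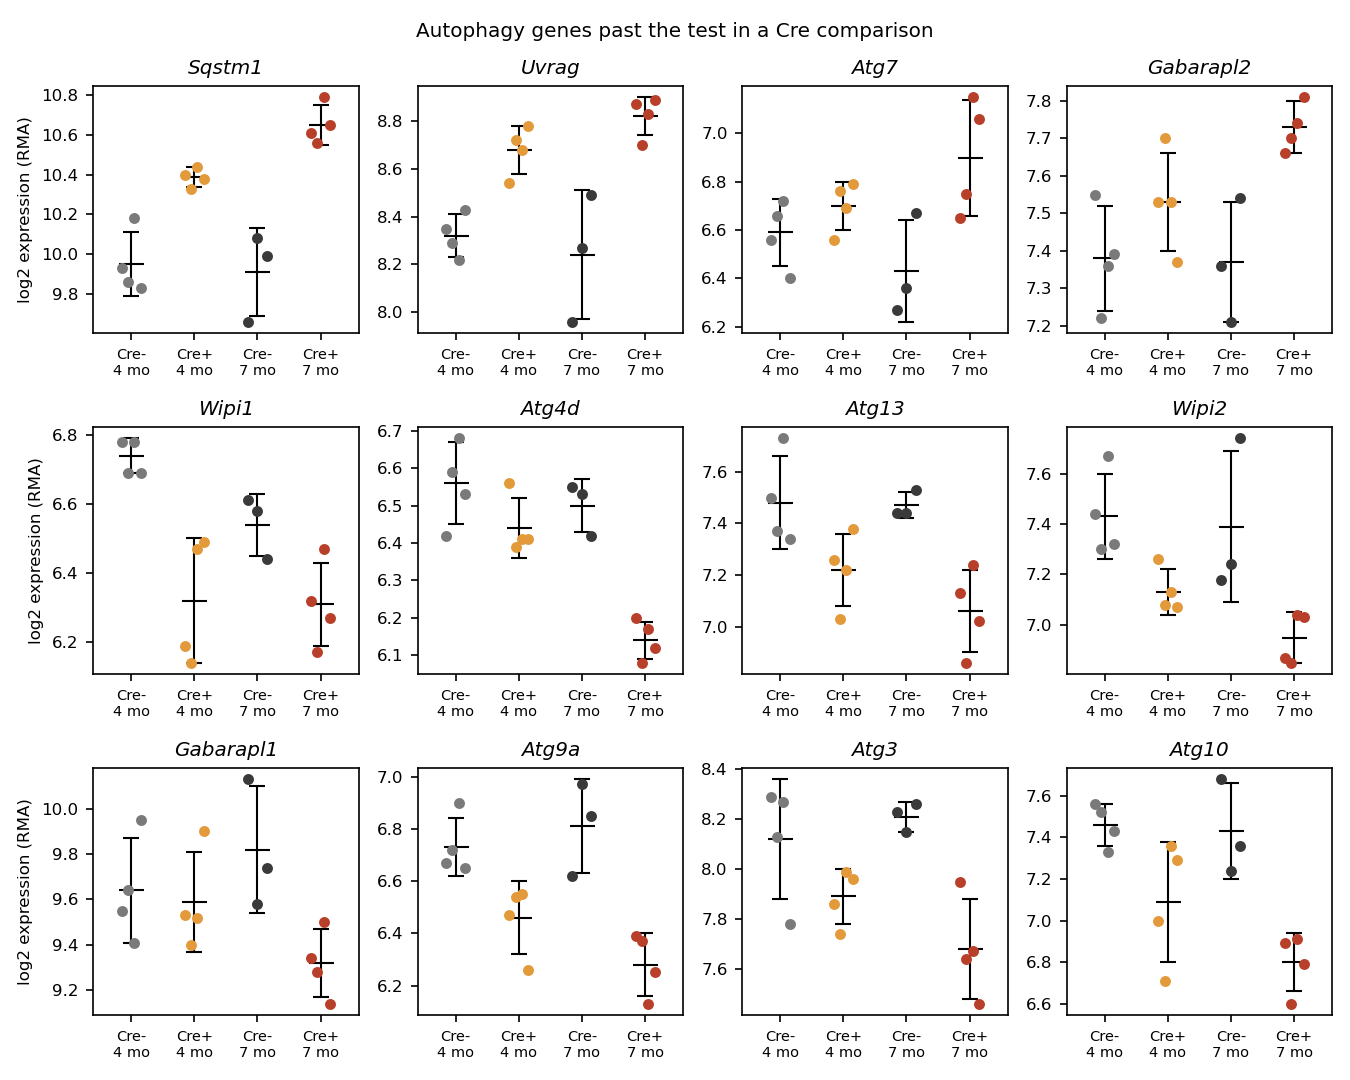
Log2 expression on each array of the autophagy genes that passed the test in a Cre comparison, by genotype and age. Points are arrays, and the ticks with capped bars are group means with the SD above and below. Among them, Sqstm1, Uvrag and Gabarapl2 had all 4 Cre+ arrays above the 3 Cre- arrays at 7 months, and in Atg7 the groups overlapped.

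The ATG8 proteins, which coat the phagophore and bind cargo receptors, did not move as a family. Of 5 genes, 1 rose and 1 fell at 7 months, and 0 passed at 4 months. Gabarapl2 was at 7.55, 7.22, 7.36 and 7.39 in Cre- and 7.53, 7.70, 7.53 and 7.37 in Cre+ kidneys at 4 months. At 7 months it was at 7.36, 7.21 and 7.54 in Cre- and 7.66, 7.70, 7.74 and 7.81 in Cre+ kidneys. The groups overlapped at 4 months, and at 7 months the Cre+ arrays were higher. Gabarapl2 rose by 0.36 at 7 months (SE 0.11, 1.28-fold, limma adjusted p = 0.029), against 0.16 (SE 0.10, adjusted p = 0.50) at 4 months. The call was lost with median centring (0.28, adjusted p = 0.077), with the 2 groups fitted alone (adjusted p = 0.054) and without Cre- replicate 1 or 2 or Cre+ replicate 3 or 4 (0.28 to 0.35, adjusted p = 0.057 to 0.15).

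Its paralog Gabarapl1 went the other way. Its levels were 9.55, 9.64, 9.41 and 9.95 in Cre- and 9.53, 9.40, 9.52 and 9.90 in Cre+ kidneys at 4 months. At 7 months they were 10.13, 9.58 and 9.74 in Cre- and 9.34, 9.28, 9.5 and 9.14 in Cre+ kidneys. The groups covered much the same range at 4 months, and at 7 months the Cre+ arrays were lower. Gabarapl1 fell by 0.50 at 7 months (SE 0.16, 1.42-fold, limma adjusted p = 0.028), and its 4-month change was -0.05 (SE 0.15, adjusted p = 0.91). The call was lost with quantile normalization (-0.33, adjusted p = 0.15), with the plain linear model (adjusted p = 0.055) and without Cre- replicate 1 or Cre+ replicate 2 or 4 (-0.49 to -0.34, adjusted p = 0.057 to 0.16).

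Map1lc3b, the LC3 form most used as an autophagosome marker, did not pass at either age, with means of 10.40 (SD 0.15, n = 4) and 10.54 (SD 0.16, n = 4) at 4 months and 10.39 (SD 0.14, n = 3) and 10.41 (SD 0.05, n = 4) at 7 months. Its 7-month change was 0.02, with a 95% interval of -0.22 to 0.26. Map1lc3a read 5.44, 5.60 and 5.80 in Cre- and 5.21, 5.30, 5.18 and 5.15 in Cre+ kidneys at 7 months, which did not overlap. Its change of -0.40 (SE 0.16) had a limma adjusted p of 0.09, and it passed with quantile normalization, median centring or the 2 groups fitted alone (adjusted p = 0.027 to 0.037).

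Gabarap was higher in every Cre+ array of both ages. It lay at 10.74 to 10.98 in Cre- and 10.99 to 11.11 in Cre+ kidneys at 4 months, and at 10.95 to 11.02 and 11.17 to 11.23 at 7 months. The changes of 0.19 and 0.24 did not pass in limma (adjusted p = 0.25 and 0.069), and the second passed in 5 other settings (adjusted p = 0.00026 with quantile normalization to 0.044 with array weights). A dimmer entry for the same gene went the other way at 7 months, with means of 5.47 in Cre- and 4.97 in Cre+ kidneys, and the average of both entries changed by -0.13.

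The ATG4 proteases trim ATG8 proteins before conjugation and release them from lipid afterwards, and 1 of 4 fell at 7 months. Atg4d had levels of 6.42, 6.59, 6.68 and 6.53 in Cre- and 6.56, 6.39, 6.41 and 6.41 in Cre+ kidneys at 4 months. At 7 months they were 6.55, 6.53 and 6.42 in Cre- and 6.20, 6.08, 6.17 and 6.12 in Cre+ kidneys. The groups overlapped at 4 months and were apart at 7 months. Atg4d fell by 0.36 at 7 months (SE 0.09, 1.28-fold, limma adjusted p = 0.0094), and its 4-month change was -0.11 (SE 0.09, adjusted p = 0.58). Atg4b, the most active protease of the family, changed by 0.02 and 0.10, and Atg4c by -0.08 and -0.05. Atg4a changed by -0.20 and -0.38 (adjusted p = 0.088 at 7 months), with overlapping groups. It passed with the Y-linked mean as a covariate (-0.33, adjusted p = 0.034) and without Cre- replicate 1 of the 7-month arrays (-0.55, adjusted p = 0.018).

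**Figure D3:**
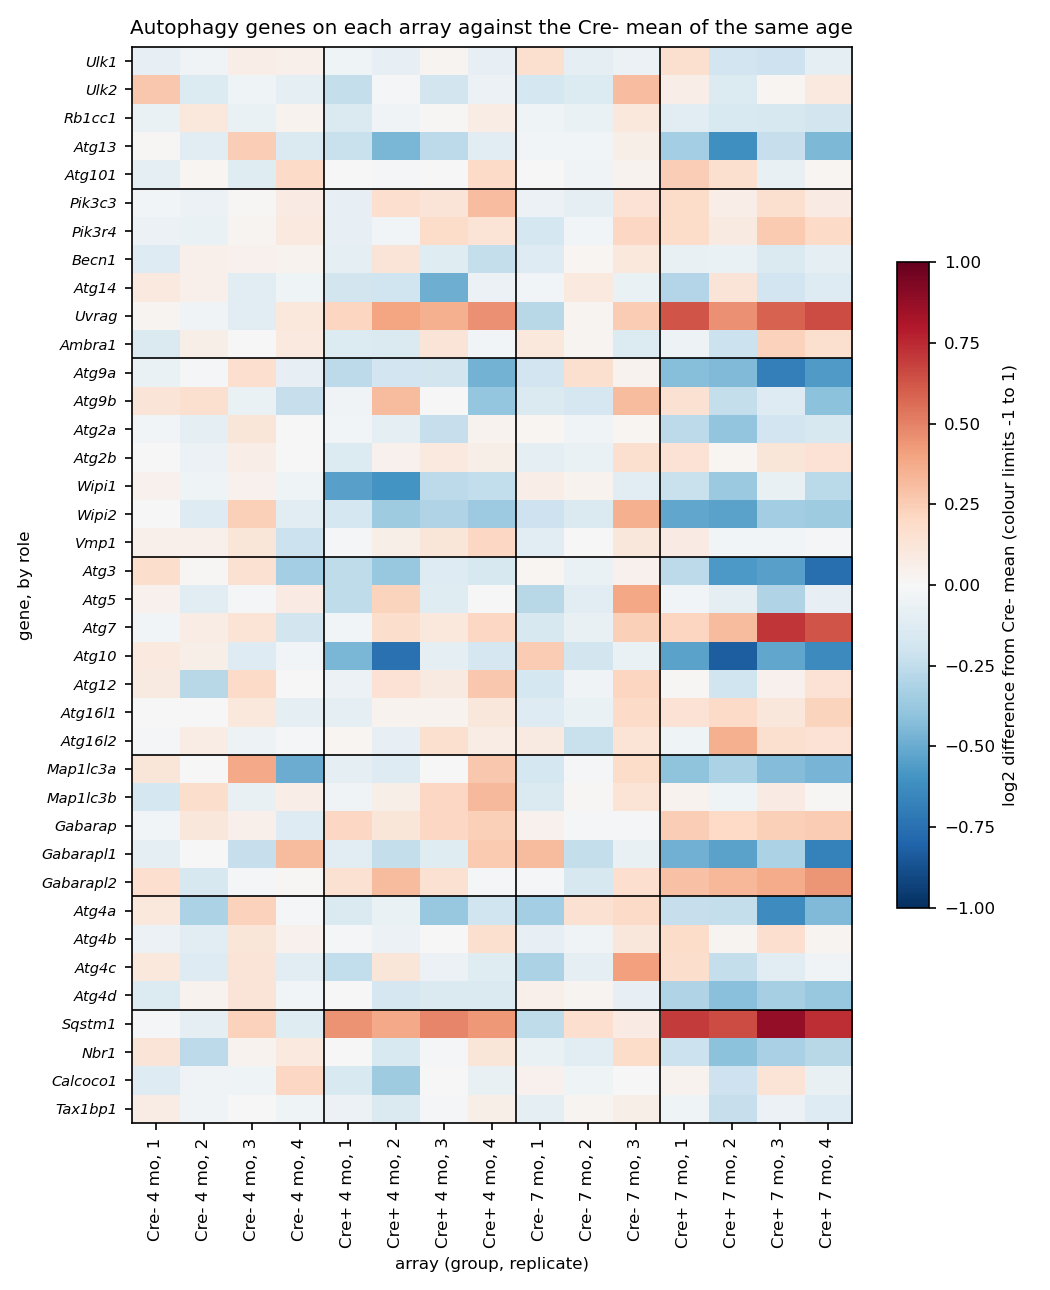
Difference of each array from the mean of the Cre- arrays of the same age, for the 38 autophagy genes (rows, by role) on 15 arrays (columns, by group), in log2 units with colours limited to -1 and 1. At 7 months the Cre+ columns are high for Sqstm1 and Uvrag and low for Atg10, Atg9a and Atg3, and at 4 months these genes show smaller differences.

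Groups without overlap were more common than calls. At 4 months 3 of the 38 genes had every Cre+ array above every Cre- array (7.89%, against 6.31% of all genes) and 3 had every Cre+ array below (7.89%, against 3.16%). At 7 months 4 were above (10.5%, against 14% of all genes) and 11 below (28.9%, against 15.2%). Among genes kept by the filter on dim genes, the shares at 7 months were 11.1% above, against 21.3%, and 30.6% below, against 20.7%, and at 4 months 8.33% each, against 7.72% above and 5.23% below. The 11 genes below at 7 months were Rb1cc1, Atg13, Atg9a, Atg2a, Wipi2, Atg3, Atg10, Map1lc3a, Gabarapl1, Atg4d and Nbr1.

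The difference between the 7-month and the 4-month Cre comparison passed for 0 of the 38 genes (adjusted p = 0.32 to 0.98 in limma), against 2.14% of all genes (0.96% upward and 1.18% downward). At an unadjusted p under 0.05 the count was also 0, as it was after adjustment in the plain linear model. The largest differences were -0.45 for Gabarapl1 (SE 0.21, adjusted p = 0.32), -0.42 for Map1lc3a (SE 0.22, adjusted p = 0.38) and 0.36 for Atg7 (SE 0.19, adjusted p = 0.37). Thus a call at 7 months and none at 4 months is not shown to be a difference between the ages for any of the genes. All 11 genes called at 7 months had the same sign and a smaller size at 4 months, in comparisons that share no array. Of all 4991 genes called at 7 months, 4611 (92.4%) had the same sign and 4886 a smaller size at 4 months.

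Age within a genotype moved few of the genes. In Cre- kidneys 0 of 38 passed between 4 and 7 months in limma and in the plain linear model, and 1 gene, Calcoco1, had an unadjusted p under 0.05 (-0.29, adjusted p = 1.0). Of all genes 1 passed there (0.00451%). In Cre+ kidneys 0 rose (against 4.12% of all genes) and Atg4d fell (2.63% of the 38, against 6.71% of all genes). It fell by 0.30 (SE 0.09, limma adjusted p = 0.036), with every 7-month Cre+ array, at 6.08 to 6.20, below every 4-month one, at 6.39 to 6.56. That call was lost with median centring, with the 2 groups alone, with the replicate block and without any 1 of 7 of the 8 Cre+ arrays, all but 4-month replicate 2 (adjusted p = 0.052 to 0.089 without an array). At an unadjusted p under 0.05 stood Atg4d, Map1lc3a (-0.37) and Sqstm1 (0.27), the last 2 at an adjusted p of 0.13.

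Sex is not among the labels. The mean of Y-linked genes was high on 8 arrays and low on 7, with 2 of each kind per group, save that the Cre- group of 7 months had 2 high and 1 low. Within each kind of array, a comparison added after the data were seen, the 2 genes called at 4 months and all 11 called at 7 months kept their direction. The same arrays gave the calls, so the kept direction is no separate support for them. At 7 months Sqstm1 rose by 0.55 (SE 0.13, limma adjusted p = 0.009) in arrays with high values. In those with low values its change was 1.06, against 1 Cre- array, which is assumed to vary like the other groups. Atg10 was at -0.55 (SE 0.15, adjusted p = 0.021) and -0.83. In arrays with high values Uvrag, Atg3, Atg7, Gabarapl1, Gabarapl2 and Atg4d did not pass (limma adjusted p = 0.06 to 0.46). Atg7 was at 0.19 and 0.84 in arrays with high and low values, and Wipi2 at -0.63 and -0.15. Of the 11 genes 5 passed in the arrays with high values, and the share of all genes passing there is not given here. At 4 months Wipi1 passed in the arrays with high values (-0.61, adjusted p = 0.018) and was at -0.21 (adjusted p = 0.44) in the others, while Sqstm1 was at 0.31 (adjusted p = 0.25) and 0.56 (adjusted p = 0.04). These differences between kinds were not tested.

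Around this core, 44 measured genes of the wider pathway were read from 4 lists of organelle receptors, fusion factors, other phagophore factors and nutrient signalling. At 4 months 1 of the 44 rose and 0 fell, against 2.73% and 0.803% of all genes. At 7 months 5 of the 44 rose and 9 fell, against 11.7% and 10.8% of all genes. With the filter on dim genes 6 rose and 14 fell, against 20.7% and 19% of all genes kept. The 44 genes were not tested as a group against either background. The median change was -0.02 and -0.05. Dram1, a lysosomal membrane protein that promotes autophagy, rose at both ages, by 0.73 (SE 0.14, limma adjusted p = 0.0056) and 1.31 (SE 0.15, 2.47-fold, adjusted p = 7.7e-06). Its level was 6.31 to 6.84 over all Cre- arrays of 7 months and 7.71 to 7.95 over the Cre+ arrays. Tecpr1, a factor that links autophagosomes to lysosomes, rose by 1.08 at 7 months (SE 0.15, 2.12-fold, adjusted p = 4.9e-05), and Trp53inp1, a stress-induced autophagy protein, by 0.82 (SE 0.20, adjusted p = 0.0054).

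In the list of receptors and regulators of selective autophagy, 6 of 11 measured genes fell at 7 months and 0 rose (median -0.32). Of all genes 10.8% fell and 11.7% rose, or 19% and 20.7% of those kept by the filter on dim genes, and the lists were not tested against each other. At 4 months 0 passed in either direction (median -0.07). Pink1, the kinase that marks damaged mitochondria for autophagy, fell by 0.77 at 7 months (SE 0.13, 1.71-fold, limma adjusted p = 0.00041). The list is mixed in function: Pink1 is a kinase, and Ncoa4, which also fell (-0.32, adjusted p = 0.019) and is named here after its values were seen, is the receptor for ferritin. At 7 months 22.5% of all genes were called in either direction, and among genes kept by the filter 20.7% rose and 19% fell. In nutrient signalling, which sets when autophagy starts, 1 of 13 genes rose and 2 fell at that age. Those 2 were Prkaa2, a catalytic subunit of AMPK, by 1.05 (SE 0.12, 2.07-fold, adjusted p = 8e-06), and Mtor, the kinase that restrains initiation, by 1.02 (SE 0.24, 2.03-fold, adjusted p = 0.0049). All 12 proximal tubule markers fell and 14 of 15 macrophage markers rose in the same comparison, and their part in these values was not tested.

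**Figure D4:**
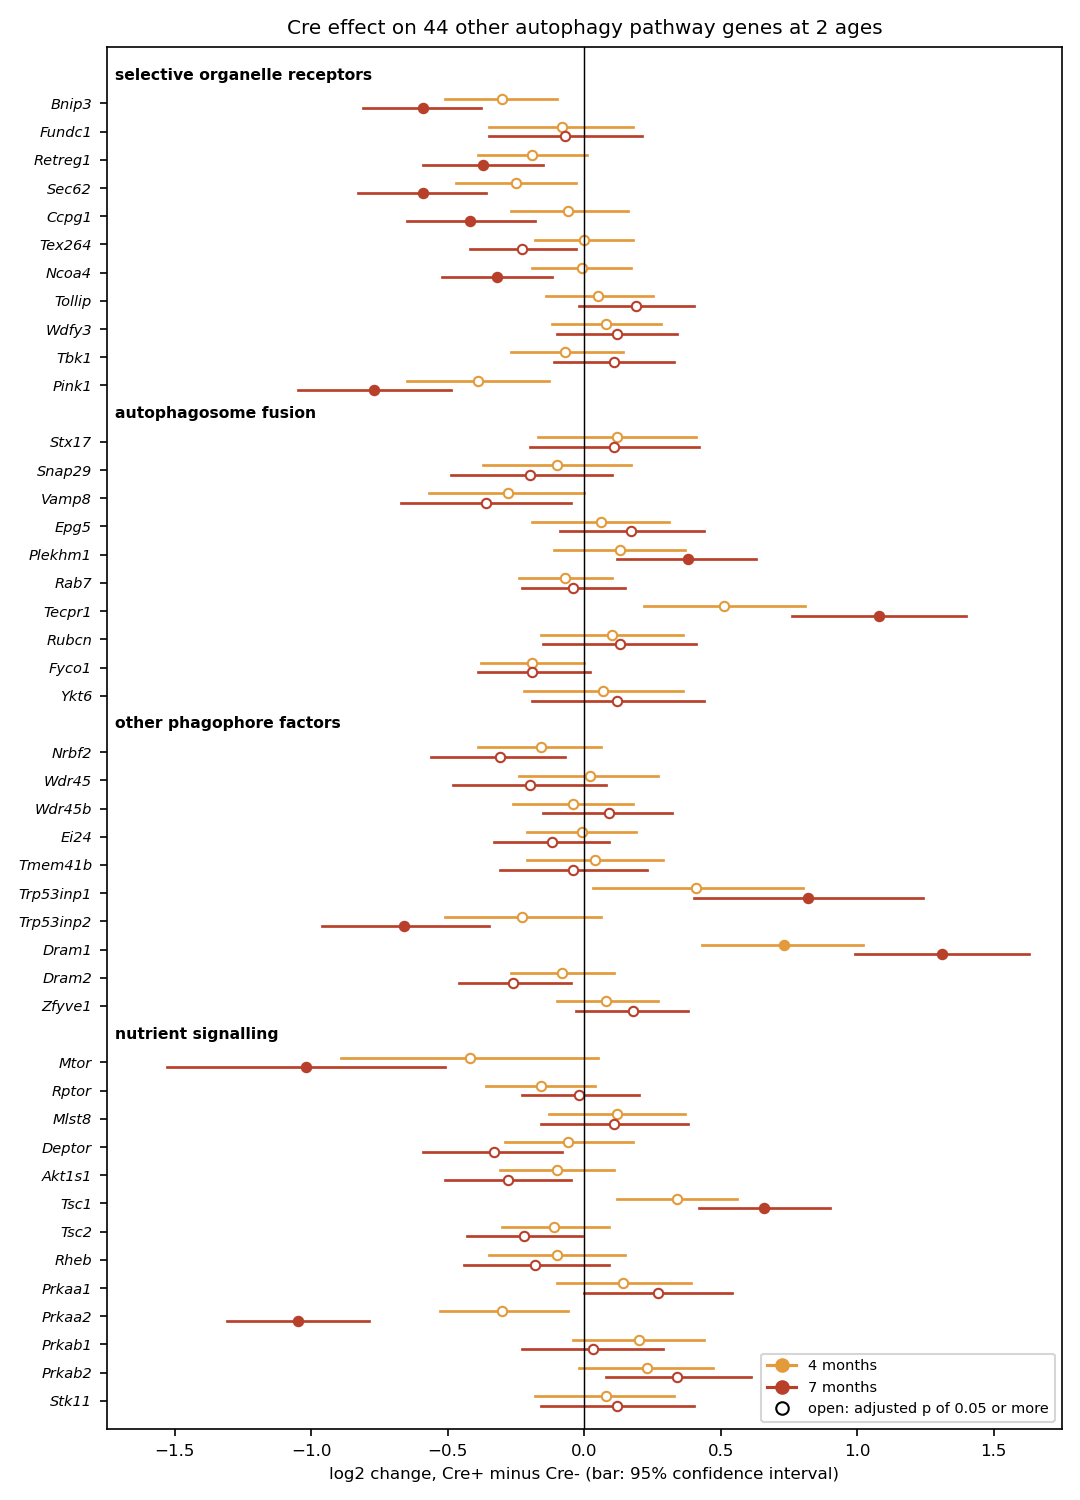
Change in log2 expression (Cre+ minus Cre-) of 44 further autophagy pathway genes in 4 lists at 4 and 7 months, with 95% confidence intervals from the limma fit. Open points did not pass the test. Dram1 and Tecpr1 lie farthest to the right at 7 months (1.31 and 1.08) and Prkaa2 and Mtor farthest to the left (-1.05 and -1.02).

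In each group the median spread between mice was smaller for the autophagy genes than over all genes. The filter on dim genes kept 36 of the 38 but 12296 of the 22180 genes, and spread was not compared among genes kept. The median SD within a group was 0.10 to 0.15 over the 38 genes, against 0.15 to 0.18 over all genes, and the largest SD of a single gene was 0.38, for Atg4c in Cre- kidneys at 7 months. In the limma fit, 6 of the 11 genes called at 7 months (Atg10, Atg3, Atg4d, Atg9a, Sqstm1 and Uvrag) kept the call under every planned setting and without any 1 array of the groups compared, and 0 of the 2 called at 4 months did. The fits within Y-linked kinds are not among the planned settings, and in arrays with high values Atg3, Atg4d and Uvrag did not pass.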

How the data were processed

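Total RNA from flash-frozen kidneys of 15 mice was hybridised to Affymetrix Mouse Gene 2.0 ST arrays, per the labels. The authors deposited log2 values, made with Partek 6.6 and RMA (background correction, normalization between arrays, probe summaries), per the submitters' processing notes. The log2 scale was read from the range of values, 1.04 to 13.12. For the genome build behind the probes, none was given in the sources used here.

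Of 41345 entries, 23521 had 1 gene symbol in the platform annotation, 1814 several and 16010 none. Symbols were updated by Entrez identifier through the RefSeq table of GRCm38.p6 (23328 matched). For a gene with several entries the one of highest mean was kept, leaving 22180 genes.

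A mean per group was fitted across the 15 arrays in R 4.3.3 with limma 3.58.1 (lmFit, eBayes), two-sided, with Benjamini-Hochberg adjustment over all genes. The submitters name an analysis of variance; the plain linear model stands in for it among the alternatives. The others were median centring, quantile normalization, a filter on dim genes, robust variance with trend, array weights, the 2 compared groups alone, a replicate block, averaging a gene's entries, a Y-linked covariate and omission of each array, with fits within Y-linked kinds added after the data were seen. Each array is 1 mouse by the design text, and p-values reflect variation among mice. The fit was tested on simulated data for the 7-month Cre comparison. Genes and lists were chosen with earlier results of these data known. All 39 set genes could be named, with full values for those past the test, plus at most 3 rises and 3 falls of the pathway lists per Cre comparison. Of 47 pathway genes named, 44 were measured. The filter on dim genes kept genes over 4.9, the median level of named entries, on 3 or more arrays. Same-numbered arrays did not deviate together, so replicate numbers were not used as pairs. Tables and figures were made with Python 3.11.15, pandas 2.3.3, numpy 2.4.6 and matplotlib 3.10.9.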

Additional observations from a re-analysis of the deposited data

Results flagged for a closer look

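In 4 of 114 groups of 4 arrays, the highest or lowest array of an autophagy gene lay far from the others by Dixon's criterion at 95%, which chance alone gives in about 1 of 20 groups. Atg101, an adaptor of the initiation complex, was at 6.36 on Cre+ replicate 4 at 4 months and at 6.16 to 6.17 on the other 3 arrays. Becn1, the PI3-kinase scaffold, was at 7.12 on Cre- replicate 1 at 4 months, with the others at 7.28 to 7.30. The dim Vmp1 was at 2.83 on Cre+ replicate 1 at 7 months, with the others at 2.72 to 2.73. Atg4d, the ATG4 protease that fell at 7 months, was at 6.56 on Cre+ replicate 1 at 4 months, with the others at 6.39 to 6.41.

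Among the wider pathway genes, Prkaa2 had a Cre effect that differed between the ages, by -0.75 (SE 0.17, limma adjusted p = 0.025). Its level was 10.07 to 10.44 in Cre- and 9.86 to 10.13 in Cre+ kidneys at 4 months, and 10.08 to 10.41 and 9.07 to 9.40 at 7 months. Without any 1 of 6 arrays (at 4 months Cre- replicate 2 or Cre+ replicate 1, at 7 months Cre- replicate 2 or 3 or Cre+ replicate 2 or 3) the difference was -0.74 to -0.68 and did not pass (adjusted p = 0.051 to 0.078).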

How the results depend on the processing

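Counts of autophagy genes past the test moved with several settings. At 4 months the 1 rise became 2 with quantile normalization and with array weights, and 0 with median centring, with the 2 groups fitted alone and within arrays of high Y-linked values. The 1 fall at 4 months became 2 with median centring and 0 with the 2 groups alone and within arrays of low Y-linked values. At 7 months the 4 rises became 2 with the 2 groups alone and 1 within arrays of high Y-linked values, and the 7 falls became 12 with median centring, 4 within arrays of high and 3 within arrays of low Y-linked values. For 7 against 4 months in Cre+ kidneys, the 0 rises became 2 with quantile normalization, and the 1 fall became 0 with median centring and with the 2 groups alone. Over all genes, rises in that comparison went from 914 to 1325 with quantile normalization, and falls from 1488 to 1360 with median centring. At 4 months rises over all genes went from 606 to 597 with quantile normalization and to 497 with median centring. Falls over all genes went from 178 to 511 at 4 months and from 2394 to 3609 at 7 months with median centring. Counts over all genes with the 2 groups alone, with array weights or within a Y-linked kind are not given here. Among the autophagy genes, leaving out 1 array gave 0 to 1 rises and 0 to 1 falls at 4 months. It gave 2 to 4 rises and 4 to 7 falls at 7 months, and 0 to 1 falls with age in Cre+ kidneys. The change of Gabarap at 7 months turned from 0.24 to -0.13 when its entries were averaged. The cause of these shifts was not tested. For single genes, values under the planned settings kept direction and side of the threshold in 273 cases, lost the call in 12 and gained it in 23, and with 1 array left out the counts were 187, 43 and 1. These cases cover the calls of the set and the calls of the pathway genes with the largest rises and falls. They also cover set genes chosen because another setting gave a call, so gains are there by choice and the counts are no rate for the set. With the replicate number as a block, 1 rose and 1 fell at 4 months and 4 rose and 8 fell at 7 months, and the fall with age in Cre+ kidneys became 0. No label ties same-numbered arrays to each other: their deviations correlated at -0.275 to 0.193 at 4 months and at -0.278 to 0.222 at 7 months, so no pairing was read. Over pairs of any number, these correlations went with the Y-linked kind. At 4 months pairs of the same kind were at 0.135 to 0.327 and pairs of unlike kinds at -0.286 to -0.127. At 7 months the ranges were -0.093 to 0.222 and -0.278 to -0.019. Arrays carry no counts, so the number of mice sets the precision, and the dim Vmp1 and Atg9b are the least certain.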
